A study of Mus musculus with 6 samples.

Results

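The heat shock proteins and chaperones examined here were the *Hspa*, *Hsph1*, *Hsp90*, *Hspb*, *Hspd1* and *Hspe1* genes, the J-protein genes *Dnaja*, *Dnajb* and *Dnajc*, and the *Cct* genes of the TRiC chaperonin. The rule matches symbols and uses no measured value, and 81 of the 25239 symbols counted in the hippocampus matched. RNA was sequenced from the hippocampus of 3 WT (Ube3am+/p+) and 3 Ube3am-/p+ male mice, all on the C57BL/6 background and aged 6 to 8 weeks as the methods state, with 1 library per mouse. The Ube3am-/p+ mouse is a model of Angelman syndrome that carries a non-functional copy of *Ube3a*, a ubiquitin ligase gene, on the maternal chromosome and an intact copy on the paternal chromosome. The labels list no treatment. How the maternal allele was disrupted is not given in the sources used here. The mice were numbered 1 to 3 within each genotype, and the p-values below measure the spread between these 6 mice.

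Chaperones bind unfolded or partly folded proteins and keep them from aggregating. HSP70 proteins do this in cycles of ATP hydrolysis. J-proteins deliver the client and start the hydrolysis, and nucleotide exchange factors, among them the HSP110 proteins, release it. HSP90 takes over late folding steps of kinases and steroid receptors, the TRiC ring folds actin and tubulin, and HSP60 with its lid HSP10 folds proteins in mitochondria. Small heat shock proteins hold clients without ATP. Under heat or misfolding the factor HSF1 raises the cytosolic set from heat shock elements in the promoters, and in the endoplasmic reticulum (ER) a separate unfolded protein response raises the ER set. In neurons these proteins also serve the synapse, where *Dnajc5* (cysteine string protein) guards vesicle release and *Dnajc6* (auxilin) uncoats clathrin-coated vesicles.

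The libraries held 7293272 to 8675252 counts on genes in WT mice and 8871052 to 11314409 in Ube3am-/p+ mice, and levels are given as CPM, the counts of a gene scaled to the same total of gene counts in every library. *Ube3a* itself had 104, 141 and 151 CPM in WT mice 1, 2 and 3 and 96.8, 82.9 and 80.6 CPM in Ube3am-/p+ mice 1, 2 and 3. All 3 Ube3am-/p+ mice lay below the WT mice, with a log2 fold change of -0.58 ± 0.12 (SE) (adjusted p = 0.0363, edgeR). Reads of the paternal allele and of any part left of the maternal allele count here too. The counted gene *Snhg14* lies on the opposite strand over 8.74% of the exon bases of *Ube3a* (GENCODE M21). As the strand setting of the counting is not given, its part in these values is not known. Hippocampal neuron markers were measured in every library, at a summed level of 2200.1 to 2548 CPM in WT and 2466 to 2880.1 CPM in Ube3am-/p+ mice. The summed levels of 8 markers each were 4657 to 5190.2 against 4073 to 4389 CPM for astrocytes, 8219 to 8339 against 6872 to 7832 CPM for oligodendrocytes and 25.1 to 27.1 against 36.5 to 46.7 CPM for ependyma, without overlap between the genotypes. Microglia (382 to 419 against 354 to 375 CPM) and endothelial and mural cells (292 to 305 against 259 to 276 CPM) did not overlap either, while the meninges (48.5 to 56.8 against 52.8 to 92.6 CPM) did. Choroid plexus markers ranged from 106 to 2218 CPM in WT and from 111 to 2305 CPM in Ube3am-/p+ mice, and were lowest in WT mouse 2 and Ube3am-/p+ mouse 3. No marker on these lists was listed at 0 in all libraries, and their part in the chaperone values was not tested. In whole tissue, fewer cells of a type and less RNA per cell cannot be told apart.

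The chaperone genes as a group were close to the WT level in the Ube3am-/p+ hippocampus. Of the 81 members, 69 had enough counts to be tested, and 1 passed the test, *Dnajb2*, which was higher in Ube3am-/p+ mice. A gene was called at an adjusted p below 0.05 (edgeR's quasi-likelihood F test, Benjamini-Hochberg over all 14445 genes tested) and a fold change above 1.2, and 2.01% of all genes tested were called, 1.02% higher and 0.99% lower. At an unadjusted p below 0.05, 7 members were higher and 4 lower, beside 12.2% and 12.4% of all genes (24.6% in both directions). The 3 mice of one genotype lay above all 3 of the other for 12 members (8 with Ube3am-/p+ higher and 4 with WT higher), while 25% of all genes separated in this way, 10.8% with Ube3am-/p+ higher and 14.2% with WT higher. DESeq2 gave no adjusted p to 15 of the 69 members, and counts by DESeq2 cover the others. Of the 54 members with one, 4 were called, *Dnajb2* and *Cct7* higher and *Dnajb9* and *Hspa13* lower, where 9.96% of the genes with an adjusted p were called (5.14% higher and 4.82% lower). The count also depended on single mice, with 8 members called without WT mouse 1, 6 without Ube3am-/p+ mouse 1 and 0 without any 1 of the other 4 mice. The count over all genes moved in the same way, with 2582 called without WT mouse 1 and 1816 without Ube3am-/p+ mouse 1. It was 0 without WT mouse 2, WT mouse 3 or Ube3am-/p+ mouse 2, and 2 without Ube3am-/p+ mouse 3. The shares of all genes in this paragraph also stand beside the counts on every list below.

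The differences were also small in size. The log2 fold changes (Ube3am-/p+ over WT) ran from -0.45 (*Dnajb9*) to 0.65 (*Hspa1a*), with a median of 0.034 beside 0.0025 over all genes tested. The estimate lay above 0 for 47 members and below 0 for 22, beside 7273 and 7172 of all genes tested. It was beyond 1.2-fold in either direction for 14 members (20.3% of those tested), against 32.7% of all genes. For 21 members (30.4%) the 95% interval of the fold change lay wholly within 1.2-fold, against 9.41% of all genes. The median SE of the members was 0.101 on the log2 scale, beside 0.130 over all genes.

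**Figure D1:**
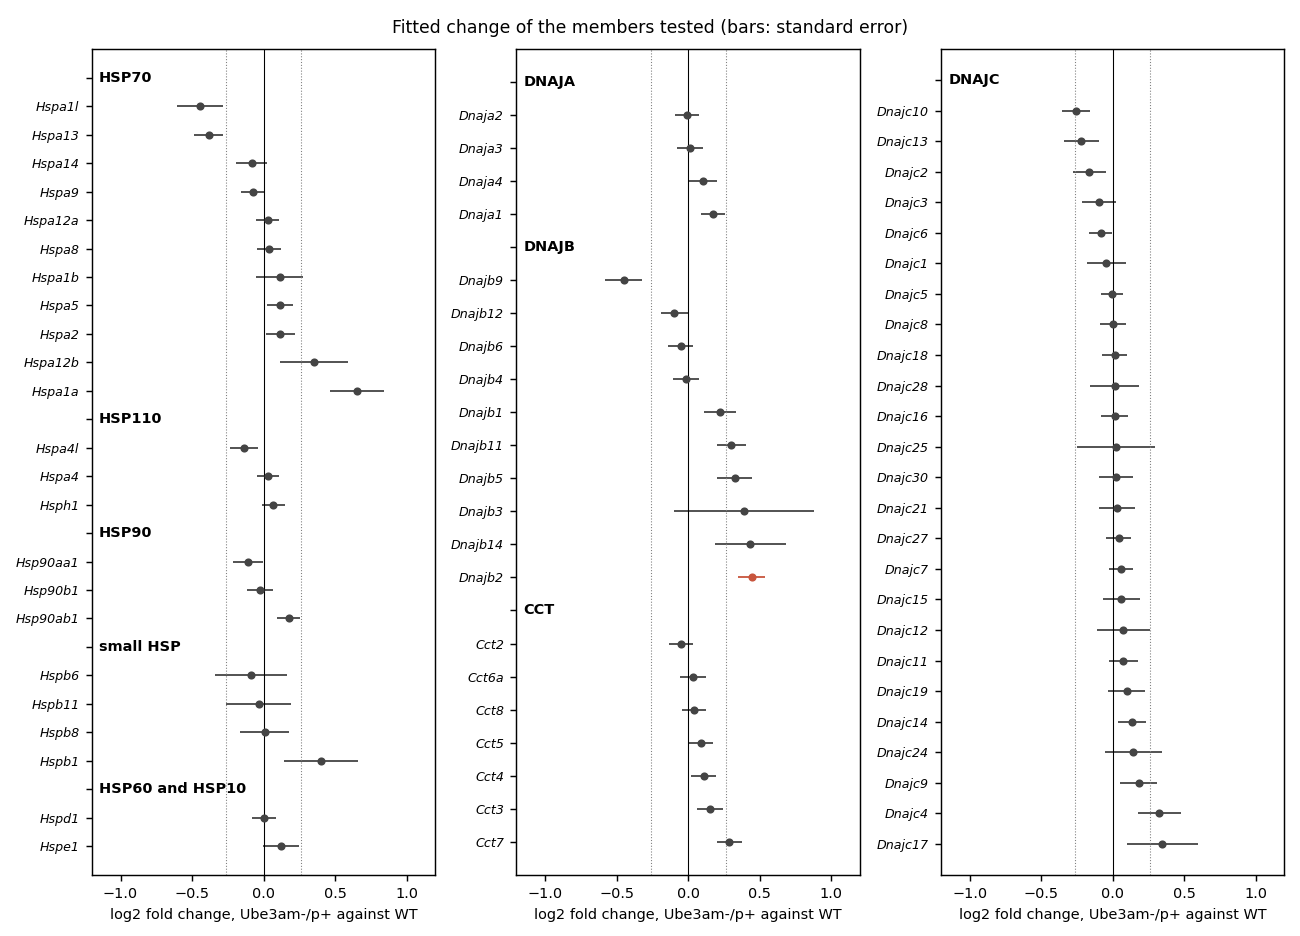
Log2 fold change (Ube3am-/p+ over WT, horizontal axis) of the 69 tested members, grouped by family, with the edgeR SE as bars, the called gene in red and dotted lines at 1.2-fold. Most points lie between the dotted lines, *Hspa1a* is farthest to the right at 0.65, and *Dnajb9* and *Hspa1l* are farthest to the left at -0.45 and -0.44.

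The members as a whole took about the same share of the transcripts in every mouse. The 81 members summed to 9321, 9721 and 9941 CPM in WT mice 1, 2 and 3 and 10048, 9645 and 9865 CPM in Ube3am-/p+ mice 1, 2 and 3. These ranges overlapped. A few genes made up much of this sum, and *Hsp90ab1*, *Hspa8* and *Hsp90aa1* held 40.0% of the member counts and the top 10 members 61.5%. To compare genes with each other, levels were divided by the length in kb of each gene's longest annotated transcript. That transcript may differ in length from the one expressed, so these levels are rough. On this scale *Hsp90ab1* had a mean level over the 6 mice of 678 CPM per kb, *Hspa8* 403 and *Hsp90aa1* 281. The next were *Hsp90b1* at 81.1, *Cct5* at 74.6 and *Hspa9* at 67.8 CPM per kb.

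Summed by family, the DNAJB genes were the 1 family of 9 whose mice did not overlap, with 583, 560.1 and 548 CPM in WT mice 1, 2 and 3 and 609, 589.7 and 637 CPM in Ube3am-/p+ mice 1, 2 and 3. The Ube3am-/p+ mice were all higher there, and 25% of all single genes tested separated by genotype in either direction. The family contains the called gene *Dnajb2*, with means of 59.9 CPM in WT and 80.5 CPM in Ube3am-/p+ mice. It also contains *Dnajb5*, at 150 and 185 CPM, which overlapped between genotypes and did not pass. Of the 10 DNAJB members tested, 6 had estimates above 0 and 4 below. The CCT genes summed to 816, 839 and 879 CPM in WT mice 1, 2 and 3 and 870.1, 891 and 908 CPM in Ube3am-/p+ mice 1, 2 and 3, and Ube3am-/p+ mouse 1 lay just below WT mouse 3. In the other 7 families the genotypes overlapped as well.

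**Figure D2:**
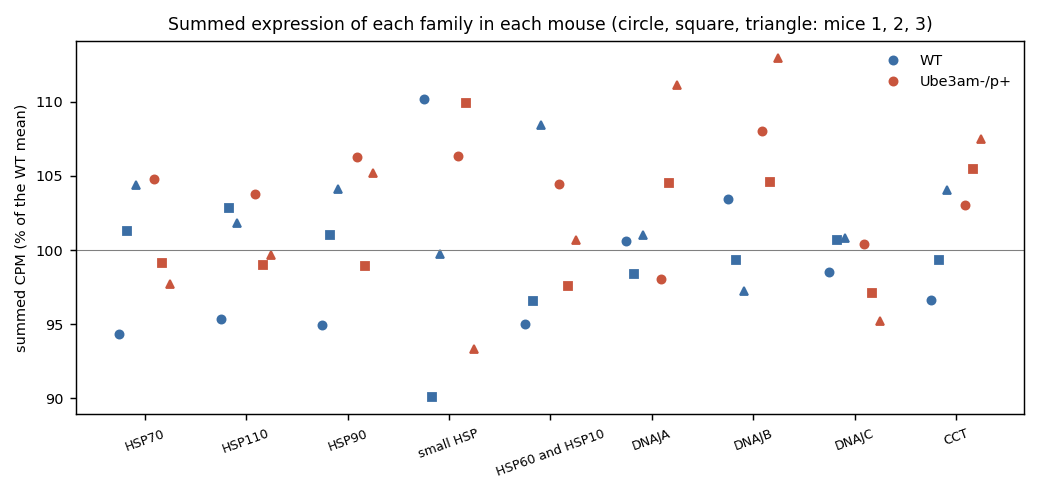
Summed CPM of each chaperone family in each mouse, as a percentage of the mean of the 3 WT mice (vertical axis), with WT in blue, Ube3am-/p+ in red, and circles, squares and triangles for mice 1, 2 and 3. The 3 red DNAJB points, at 105% to 113%, lie above the 3 blue ones, and the 2 colours overlap in the other families.

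The constitutive HSP70 and HSP110 proteins of the cytosol, which carry most of the folding load in unstressed neurons, did not pass the test. *Hspa8*, the constitutive HSC70, had 1172, 1278 and 1339 CPM in WT mice 1, 2 and 3 and 1364, 1232 and 1248 CPM in Ube3am-/p+ mice 1, 2 and 3. The mice of both genotypes were interleaved, and its log2 fold change of 0.039 ± 0.084 (SE) had a 95% interval of -0.14 to 0.22. *Hsph1* and *Hspa4*, HSP110 proteins that act as nucleotide exchange factors, had 95% intervals of -0.10 to 0.24 and -0.13 to 0.20. *Hsph1* stood at 299, 324 and 325 CPM in WT mice 1, 2 and 3 and 332, 315 and 334 CPM in Ube3am-/p+ mice 1, 2 and 3. *Hspa4* stood at 259.7, 269.7 and 268 CPM in WT mice 1, 2 and 3 and 277, 269.7 and 260.4 CPM in Ube3am-/p+ mice 1, 2 and 3. Both overlapped between genotypes, with log2 fold changes of 0.067 ± 0.080 (SE) and 0.034 ± 0.077 (SE), and the third HSP110 gene, *Hspa4l*, had -0.14 ± 0.097 (SE).

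Among the other HSP70 genes the largest estimates belonged to members of low level. *Hspa1l*, an HSP70 best known from testis, had 13.3, 13.5 and 18.0 CPM in WT mice 1, 2 and 3 and 10.9, 11.0 and 10.4 CPM in Ube3am-/p+ mice 1, 2 and 3. All Ube3am-/p+ mice lay below the WT mice, and the log2 fold change of -0.44 ± 0.16 (SE) did not pass (adjusted p = 0.109, edgeR). An antisense gene in GENCODE M21, *Gm10501*, which is not among the symbols counted, covers 71.9% of the exon bases of *Hspa1l*. The strand setting of the counting is not given in the sources used here, and without strand the reads of these genes cannot be told apart. *Hspa2*, *Hspa12a*, *Hspa12b* and *Hspa14* had log2 fold changes of 0.12, 0.028, 0.35 and -0.082, and their mice overlapped.

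The 2 cytosolic HSP90 genes had estimates of opposite sign, and neither passed. *Hsp90ab1*, the constitutive isoform and the most abundant chaperone transcript, had 1640.1, 1605 and 1601 CPM in WT mice 1, 2 and 3 and 1767, 1738 and 1903 CPM in Ube3am-/p+ mice 1, 2 and 3. Every Ube3am-/p+ mouse was above every WT mouse, and the log2 fold change was 0.18 ± 0.080 (SE) (adjusted p = 0.188, edgeR). *Hsp90aa1*, the isoform more strongly induced by stress, had 821, 1005 and 1059.6 CPM in WT mice 1, 2 and 3 and 978, 824 and 840.4 CPM in Ube3am-/p+ mice 1, 2 and 3. WT mouse 1 and Ube3am-/p+ mice 2 and 3 were the lowest, the genotypes overlapped, and the log2 fold change was -0.11 ± 0.10 (SE), which turned to 0.044 with GC content and length corrected for. The ratio of *Hsp90ab1* to *Hsp90aa1* counts was 2.00, 1.60 and 1.51 in WT mice and 1.81, 2.11 and 2.26 in Ube3am-/p+ mice, again with overlap. Of the 100-base windows of *Hsp90aa1*, 47.5% also occur in transcripts of other genes of GENCODE M21, so its counts depend on how reads with several alignments were handled.

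The stress-inducible pair *Hspa1a* and *Hspa1b*, intronless genes side by side on chromosome 17, is the classic readout of HSF1. Their promoters are shown because the values of the 2 genes are set side by side next. Each run is the 250 bases before the RefSeq start in GRCm38.p6 on the minus strand, chr17:34972157-34972406 for *Hspa1a* and chr17:34959239-34959488 for *Hspa1b*. Capitals mark a heat shock element of 2 units (GAANNTTC or TTCNNGAA, read on both strands).
Hspa1a: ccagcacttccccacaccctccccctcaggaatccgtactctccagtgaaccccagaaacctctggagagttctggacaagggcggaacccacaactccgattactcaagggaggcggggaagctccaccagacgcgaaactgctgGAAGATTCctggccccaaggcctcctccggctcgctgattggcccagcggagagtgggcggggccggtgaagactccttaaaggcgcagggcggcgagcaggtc
Hspa1b: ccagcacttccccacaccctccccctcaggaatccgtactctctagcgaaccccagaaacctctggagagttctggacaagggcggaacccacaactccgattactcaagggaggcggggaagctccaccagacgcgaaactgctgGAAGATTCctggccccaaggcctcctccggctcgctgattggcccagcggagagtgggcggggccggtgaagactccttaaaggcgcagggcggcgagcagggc
The 2 runs differ at 3 of 250 bases (98.8% identical), and each has 1 such element.

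*Hspa1a* had 8.72, 8.65 and 6.31 CPM in WT mice 1, 2 and 3 and 10.3, 13.6 and 12.9 CPM in Ube3am-/p+ mice 1, 2 and 3. All Ube3am-/p+ mice were higher than all WT mice, and the log2 fold change of 0.65 ± 0.19 (SE) was the largest estimate among the members, but it did not pass (adjusted p = 0.0632, edgeR). *Hspa1b* had 16.3, 13.8 and 10.8 CPM in WT mice 1, 2 and 3 and 13.5, 16.1 and 14.2 CPM in Ube3am-/p+ mice 1, 2 and 3. Here the genotypes overlapped, WT mouse 1 was the highest of all 6, and the log2 fold change was 0.11 ± 0.16 (SE) (adjusted p = 0.712, edgeR). The ratio of *Hspa1a* to *Hspa1b* counts was 0.536, 0.625 and 0.582 in WT mice and 0.758, 0.846 and 0.913 in Ube3am-/p+ mice, without overlap. The genes share much of their sequence, and 47.1% of the 100-base windows of *Hspa1a* occur in *Hspa1b* and 49.9% the other way. Reads with more than 1 alignment, which HTSeq lists apart, were 4.15%, 5.61% and 5.77% of the reads it listed in WT mice and 4.06%, 3.71% and 3.76% in Ube3am-/p+ mice, so the share was higher in every WT mouse. The part of these reads in the ratio was not tested.

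The textbook targets of HSF1 did not pass the test. Of the 12 members on that list, *Hspa1a*, *Hspa1b*, *Hsp90aa1* and *Hsp90ab1* among them, 0 passed by edgeR, 0 of the 10 with an adjusted p passed by DESeq2 (*Hspa1a* and *Hspb1* had none), 2 were higher at an unadjusted p below 0.05 and 0 were lower, and the median log2 fold change was 0.11. *Dnajb1*, the HSP40 that HSF1 induces together with HSP70, had 36.4, 37.0 and 34.0 CPM in WT mice 1, 2 and 3 and 36.6, 43.6 and 43.4 CPM in Ube3am-/p+ mice 1, 2 and 3. Ube3am-/p+ mice 2 and 3 were above the other 4 mice, the genotypes overlapped, and the log2 fold change was 0.22 ± 0.11 (SE) (adjusted p = 0.217, edgeR). Among the heat shock factors and their regulators, 4 of 7 were tested, 0 passed by edgeR, 0 of the 3 with an adjusted p passed by DESeq2, and 1 had an unadjusted p below 0.05, and the largest estimates either way were *Hsf1* itself at 0.12 ± 0.10 (SE) and *Hsf2* at -0.31 ± 0.14 (SE). *Cirbp* and *Rbm3*, RNA-binding proteins raised by mild cold, had log2 fold changes of 0.11 and -0.14, and neither passed.

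Heat shock elements were then searched in all promoters. RefSeq gave 1 or more promoters for 66 of the 81 members (85 promoters), and none for 15, *Hspa8*, *Hsp90aa1*, *Hsp90ab1* and *Hspa13* among them. The element of 2 units was present in 22.4% of the 85 promoters and in 12.8% of all 32851 promoters of the same length, and the element of 3 units (GAANNTTCNNGAA or TTCNNGAANNTTC, which contains the shorter one) in 4.71% and 0.466%. The 4 member promoters with 3 units belonged to 3 members, *Dnajb6*, *Hspd1* and *Hspe1*. Some promoters overlap, those of *Dnajb6* and of *Hsph1* among them, so these shares can count the same bases more than once. The HSP60 and HSP10 genes lie head to head and share the element, shown here for *Hspe1* at chr1:55087898-55088147 on the plus strand. The *Hspd1* promoter that holds it lies at chr1:55087933-55088182 on the minus strand. Capitals mark the bases covered by heat shock elements.
Hspe1: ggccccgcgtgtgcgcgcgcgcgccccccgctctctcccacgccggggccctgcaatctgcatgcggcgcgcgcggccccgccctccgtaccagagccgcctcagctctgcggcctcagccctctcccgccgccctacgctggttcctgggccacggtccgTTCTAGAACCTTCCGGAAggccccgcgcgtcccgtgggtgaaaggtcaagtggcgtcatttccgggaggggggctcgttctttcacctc
Such a match describes these letters and does not show that a factor binds there.

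*Hspd1* (HSP60) and *Hspe1* (HSP10), the mitochondrial folding chamber and its lid, did not pass. *Hspd1* had 157, 157 and 168 CPM in WT mice 1, 2 and 3 and 173, 153 and 152 CPM in Ube3am-/p+ mice 1, 2 and 3. *Hspe1* had 43.7, 47.1 and 60.7 CPM in WT mice 1, 2 and 3 and 47.9, 53.3 and 60.5 CPM in Ube3am-/p+ mice 1, 2 and 3. The genotypes overlapped for both, and the log2 fold changes were 0.0039 ± 0.085 (SE) and 0.12 ± 0.13 (SE). *Hspa9*, the mitochondrial HSP70 (mortalin), had 221, 202 and 217 CPM in WT mice 1, 2 and 3 and 199, 198 and 203 CPM in Ube3am-/p+ mice 1, 2 and 3. WT mouse 2 lay within the range of the Ube3am-/p+ mice, and the log2 fold change was -0.076 ± 0.079 (SE).

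The mitochondrial members as a list stayed within a narrow range. All 9 were tested, 0 passed by edgeR, 0 of the 8 with an adjusted p passed by DESeq2, and 0 had an unadjusted p below 0.05, and the log2 fold changes ran from -0.076 to 0.12. Their sums were 629, 604 and 646 CPM in WT mice 1, 2 and 3 and 620.1, 617 and 619 CPM in Ube3am-/p+ mice 1, 2 and 3, and the Ube3am-/p+ mice lay within the WT range. Of 10 other genes of mitochondrial protein quality control, 0 passed by edgeR or DESeq2, and 1 was higher and 1 lower at an unadjusted p below 0.05. Their highest estimate was that of the protease subunit *Clpp* (0.38 ± 0.12 (SE), adjusted p = 0.0840, edgeR), and their lowest that of the inner membrane protease *Yme1l1* (-0.35 ± 0.14 (SE), adjusted p = 0.148, edgeR).

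The members of the ER had estimates in both directions. Of 11 ER members 0 passed by edgeR, 1 was higher and 3 were lower at an unadjusted p below 0.05, and the median log2 fold change was -0.046. *Hspa5* (BiP), the ER HSP70 and the marker most used for the unfolded protein response, had 159.6, 173 and 182 CPM in WT mice 1, 2 and 3 and 202, 187 and 163 CPM in Ube3am-/p+ mice 1, 2 and 3. The genotypes overlapped, with Ube3am-/p+ mice 1 and 2 highest, and the log2 fold change was 0.12 ± 0.092 (SE) (adjusted p = 0.454, edgeR). *Hsp90b1* (GRP94), the ER form of HSP90, had 237, 261 and 298 CPM in WT mice 1, 2 and 3 and 277, 249 and 246 CPM in Ube3am-/p+ mice 1, 2 and 3. Its mice were interleaved, with a log2 fold change of -0.027 ± 0.092 (SE).

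The promoter of *Hspa5* is shown as the reference for this response, at chr2:34771840-34772089 on the plus strand (RefSeq, GRCm38.p6, 250 bases before the start). Capitals mark an ER stress response element (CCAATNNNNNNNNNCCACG, both strands).
Hspa5: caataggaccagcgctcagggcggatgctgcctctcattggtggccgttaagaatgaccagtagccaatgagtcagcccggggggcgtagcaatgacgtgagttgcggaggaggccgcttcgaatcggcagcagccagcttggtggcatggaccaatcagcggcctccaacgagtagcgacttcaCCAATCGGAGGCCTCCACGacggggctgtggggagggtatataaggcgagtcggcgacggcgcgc
This element was present in 3.53% of the member promoters (*Dnajc3*, *Hsp90b1* and *Hspa5*) and in 0.113% of all promoters. *Dnajc3* (p58IPK), a J-protein of the ER, had a log2 fold change of -0.098 ± 0.12 (SE). So the 3 members with the element had log2 fold changes between -0.098 and 0.12, and 0 of them passed.

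Of the 5 lowest estimates among the members, 3 belonged to the ER, those of *Dnajb9*, *Dnajc10* and *Hspa13* (STCH), an HSP70-like protein of microsomes. *Dnajb9* (ERdj4), which binds BiP and is raised by the unfolded protein response, had 38.2, 48.9 and 54.6 CPM in WT mice 1, 2 and 3 and 37.5, 30.8 and 33.9 CPM in Ube3am-/p+ mice 1, 2 and 3. The Ube3am-/p+ mice were all lower, although WT mouse 1 and Ube3am-/p+ mouse 1 were almost equal, and the log2 fold change was -0.45 ± 0.13 (SE) (adjusted p = 0.0632, edgeR). *Hspa13* had 50.3, 59.9 and 59.9 CPM in WT mice 1, 2 and 3 and 44.5, 40.0 and 44.2 CPM in Ube3am-/p+ mice 1, 2 and 3. Again every Ube3am-/p+ mouse was below every WT mouse, and the log2 fold change of -0.38 ± 0.10 (SE) was just short of the threshold (adjusted p = 0.0570, edgeR). By DESeq2 both were called, at adjusted p = 0.0347 and 0.0333.

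*Dnajc10* (ERdj5), a disulfide reductase of the ER, had 70.8, 82.3 and 83.9 CPM in WT mice 1, 2 and 3 and 71.9, 63.8 and 60.2 CPM in Ube3am-/p+ mice 1, 2 and 3. WT mouse 1 lay within the Ube3am-/p+ range, and the log2 fold change was -0.26 ± 0.10 (SE) (adjusted p = 0.130, edgeR). *Dnajb11* (ERdj3), a further partner of BiP that was singled out after its values were seen, had an estimate of the opposite sign, with 41.2, 35.5 and 40.2 CPM in WT mice 1, 2 and 3 and 49.8, 44.8 and 47.6 CPM in Ube3am-/p+ mice 1, 2 and 3. The Ube3am-/p+ mice were all higher, and the log2 fold change was 0.30 ± 0.10 (SE) (adjusted p = 0.0958, edgeR). The ratio of *Dnajb11* to *Dnajb9* counts was 1.08, 0.726 and 0.736 in WT mice and 1.33, 1.46 and 1.40 in Ube3am-/p+ mice, without overlap, and this pair was chosen after its values were seen.

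*Dnajb14*, a J-protein of the ER membrane, was counted at a low level, with 4.95, 3.34 and 7.13 CPM in WT mice 1, 2 and 3 and 6.65, 7.51 and 6.18 CPM in Ube3am-/p+ mice 1, 2 and 3. Its genotypes overlapped and the log2 fold change was 0.43 ± 0.25 (SE) (adjusted p = 0.292, edgeR). Of 15 other genes of the ER stress response, 0 passed by edgeR, 0 of the 13 with an adjusted p passed by DESeq2 (*Sdf2l1* had none), 3 were higher and 2 lower at an unadjusted p below 0.05, and the largest estimates were 0.42 ± 0.21 (SE) for *Sdf2l1*, a BiP cofactor, and -0.28 ± 0.10 (SE) for *Herpud1*, which serves ER-associated degradation. Neither passed (adjusted p = 0.219 and 0.105, edgeR). With GC content and length corrected for, *Herpud1* was called lower (log2 fold change -0.41, adjusted p = 0.0409, edgeR), and with the correction on coding transcripts it was not (-0.38, adjusted p = 0.0519).

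*Dnajb2* (HSJ1), a neuronal J-protein with ubiquitin-interacting motifs that guides HSP70 clients to the proteasome, was the member that passed the test. It lies at chr1:75236406-75245692 on the plus strand (GENCODE M21, GRCm38). *Dnajb2* had 62.4, 60.2 and 57.2 CPM in WT mice 1, 2 and 3 and 75.4, 84.7 and 81.3 CPM in Ube3am-/p+ mice 1, 2 and 3. Every Ube3am-/p+ mouse was higher than every WT mouse, and the means were 59.9 ± 2.64 CPM in WT mice and 80.5 ± 4.68 CPM in Ube3am-/p+ mice (mean ± SD, n = 3 each). The log2 fold change was 0.44 ± 0.092 (SE) with a 95% interval of 0.25 to 0.64 (adjusted p = 0.0362, edgeR). An exact two-sided permutation test of this 1 gene gave p = 0.1, which is the smallest value that 3 mice against 3 allow.

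The call of *Dnajb2* depended on single libraries. Without WT mouse 2, WT mouse 3, Ube3am-/p+ mouse 2 or Ube3am-/p+ mouse 3 the adjusted p was 0.232, 0.198, 0.251 and 0.136, while its log2 fold change stayed between 0.41 and 0.50. In the same order, these fits called 0, 0, 0 and 2 of all genes, so the loss of calls was not particular to *Dnajb2*. Without either mouse 1 it was called. With GC content and transcript length corrected for, the log2 fold change was 0.26 and the adjusted p 0.105. The promoter of *Dnajb2* at chr1:75236173-75236422 (plus strand, RefSeq, GRCm38.p6, 250 bases before the first start) held neither the heat shock elements nor the ER stress response element named above, so no letters are capitalised in it.
Dnajb2: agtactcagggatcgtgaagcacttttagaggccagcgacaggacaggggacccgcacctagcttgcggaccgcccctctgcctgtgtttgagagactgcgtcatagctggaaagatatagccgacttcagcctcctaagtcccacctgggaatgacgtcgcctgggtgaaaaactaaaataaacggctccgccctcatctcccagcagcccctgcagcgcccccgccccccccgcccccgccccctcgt
A second RefSeq start of the gene, with a promoter at chr1:75236452-75236701, had none of these letters either.

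**Figure D3:**
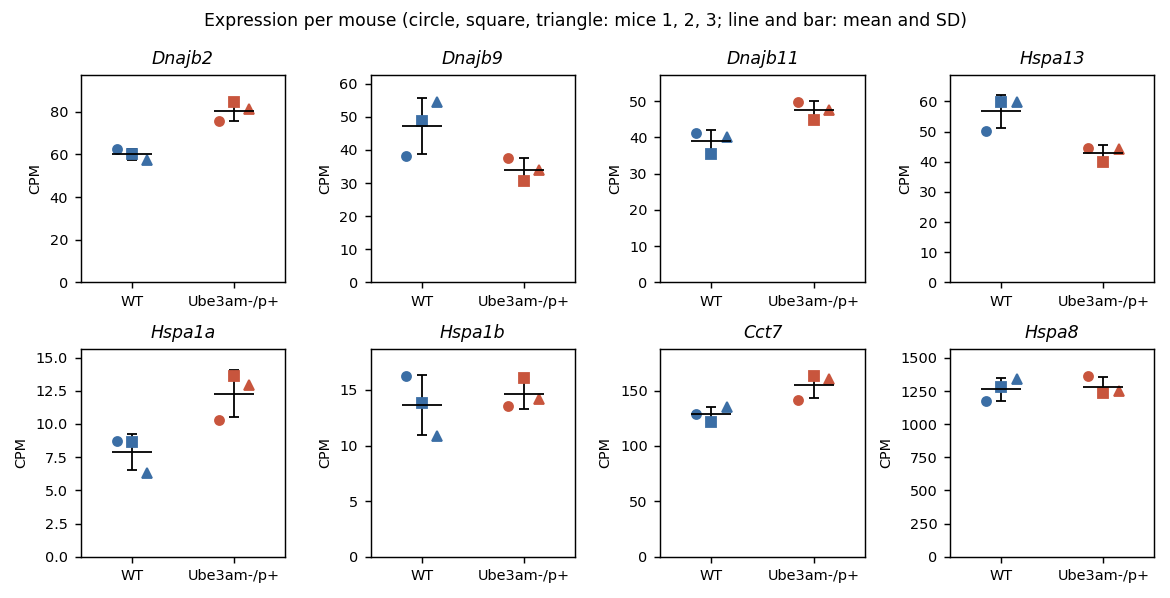
CPM (vertical axes, from 0) of *Dnajb2*, *Dnajb9*, *Dnajb11*, *Hspa13*, *Hspa1a*, *Hspa1b*, *Cct7* and *Hspa8* in each of 3 WT and 3 Ube3am-/p+ mice (points), with the mean and SD. *Dnajb2* separates by genotype, *Dnajb9* separates with mouse 1 of both genotypes almost level, and *Hspa8* and *Hspa1b* overlap.

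The remaining cytosolic J-proteins, which set the client range of HSP70, did not pass. *Dnaja1*, a general HSP70 partner, had 215, 196 and 208 CPM in WT mice 1, 2 and 3 and 216, 230.1 and 245 CPM in Ube3am-/p+ mice 1, 2 and 3. Ube3am-/p+ mice were all higher, though mouse 1 was almost level with WT mouse 1, and the log2 fold change was 0.18 ± 0.084 (SE) (adjusted p = 0.204, edgeR). *Dnaja2*, with a similar role, had 176, 195 and 193 CPM in WT mice 1, 2 and 3 and 175, 183 and 196 CPM in Ube3am-/p+ mice 1, 2 and 3. The mice were interleaved, with a log2 fold change of -0.0094 ± 0.084 (SE).

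*Dnajb6*, a suppressor of polyglutamine aggregation, had 115, 129.7 and 129 CPM in WT mice 1, 2 and 3 and 123, 111 and 122 CPM in Ube3am-/p+ mice 1, 2 and 3. It overlapped between genotypes and had a log2 fold change of -0.053 ± 0.088 (SE). *Dnajb5*, a cytosolic J-protein, had 181, 143 and 125 CPM in WT mice 1, 2 and 3 and 184, 168 and 205 CPM in Ube3am-/p+ mice 1, 2 and 3. WT mouse 1 lay among the Ube3am-/p+ mice and apart from WT mice 2 and 3, and the log2 fold change was 0.33 ± 0.12 (SE) (adjusted p = 0.126, edgeR). *Dnajb3*, an intronless gene, had 1.18, 0.461 and 1.23 CPM in WT mice 1, 2 and 3 and 0.676, 1.41 and 1.52 CPM in Ube3am-/p+ mice 1, 2 and 3. These levels rest on few reads, the genotypes overlapped, and the SE of its log2 fold change of 0.39 was 0.49.

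The J-proteins of synaptic vesicles were the most abundant of the DNAJC family and differed little between genotypes. *Dnajc6* (auxilin) had 362, 349 and 351 CPM in WT mice 1, 2 and 3 and 348, 315 and 326 CPM in Ube3am-/p+ mice 1, 2 and 3. The Ube3am-/p+ mice were all slightly lower, mouse 1 almost level with WT mouse 2, and the log2 fold change of -0.085 ± 0.080 (SE) did not pass (adjusted p = 0.538, edgeR). *Dnajc5* (cysteine string protein) had 349, 353 and 359.8 CPM in WT mice 1, 2 and 3 and 346, 348 and 351 CPM in Ube3am-/p+ mice 1, 2 and 3. Its 6 mice were interleaved, and the 95% interval of its log2 fold change of -0.0051 was -0.17 to 0.16. *Dnajc13* (RME-8), a J-protein of endosomes, had 59.6, 75.6 and 69.0 CPM in WT mice 1, 2 and 3 and 67.0, 59.6 and 47.1 CPM in Ube3am-/p+ mice 1, 2 and 3. The genotypes overlapped, with Ube3am-/p+ mouse 3 lowest, and the log2 fold change was -0.22 ± 0.12 (SE) (adjusted p = 0.283, edgeR).

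Of the 25 DNAJC genes tested 0 passed by edgeR, 0 of the 19 with an adjusted p passed by DESeq2 (*Dnajc4* and *Dnajc17* had none), 1 was higher and 1 lower at an unadjusted p below 0.05, 18 had estimates above 0 and 7 below, and 17 of the 25 lay within 0.1 of 0 on the log2 scale. *Dnajc4* was higher in every Ube3am-/p+ mouse, at 13.2, 15.6 and 13.5 CPM against 11.8, 11.9 and 10.6 CPM in WT mice, and did not pass (log2 fold change 0.32 ± 0.15 (SE), adjusted p = 0.197, edgeR). *Dnajc17*, a J-protein linked to splicing, had the highest DNAJC estimate, 0.35 ± 0.25 (SE), on 8.72, 4.15 and 7.82 CPM in WT mice and 7.78, 7.51 and 10.6 CPM in Ube3am-/p+ mice, which overlapped.

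The small heat shock proteins with *Hspb* symbols had the lowest summed level of the families, 23.4 to 28.6 CPM over the 6 mice. *Cryab*, also a small heat shock protein, falls outside the symbols chosen and is not in this sum. Of 8 genes 4 could be tested, and 0 passed by edgeR or had an unadjusted p below 0.05. DESeq2 gave none of them an adjusted p. *Hspb8*, which works with the cochaperone *Bag3* in selective autophagy, had 13.7, 11.4 and 11.4 CPM in WT mice 1, 2 and 3 and 13.9, 12.9 and 9.60 CPM in Ube3am-/p+ mice 1, 2 and 3. *Hspb1* (HSP25), a holdase of glia, vessels and stressed neurons, had 4.71, 2.88 and 5.35 CPM in WT mice 1, 2 and 3 and 4.96, 6.63 and 5.13 CPM in Ube3am-/p+ mice 1, 2 and 3. Both overlapped between genotypes, with log2 fold changes of 0.0088 ± 0.17 (SE) and 0.40 ± 0.26 (SE). For *Hspb1*, 42.7% of the 100-base windows also occur in other annotated genes, mostly the pseudogene *Hsp25-ps1*. *Hspb6* and *Hspb11* had log2 fold changes of -0.090 ± 0.25 (SE) and -0.033 ± 0.23 (SE). *Hspb11* was matched by its symbol, but it is also known as *Ift25*, a subunit of ciliary transport.

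The TRiC chaperonin is a double ring built from 8 kinds of subunit. The levels of its 7 *Cct* members with more than 1 CPM per kb ran from 28.3 (*Cct3*) to 74.6 (*Cct5*) CPM per kb of the longest transcript. The part of the transcript length used in this range was not tested. *Cct5* had 138, 134 and 133 CPM in WT mice 1, 2 and 3 and 147, 133 and 145 CPM in Ube3am-/p+ mice 1, 2 and 3. *Cct2* had 129.9, 137 and 135 CPM in WT mice 1, 2 and 3 and 120.4, 138 and 126 CPM in Ube3am-/p+ mice 1, 2 and 3. Neither separated by genotype, and the log2 fold changes were 0.090 ± 0.084 (SE) and -0.049 ± 0.086 (SE). *Cct7* had the largest estimate of the complex, with 129, 122 and 135 CPM in WT mice 1, 2 and 3 and 142, 163 and 160.2 CPM in Ube3am-/p+ mice 1, 2 and 3. All Ube3am-/p+ mice were higher than the WT mice, and the log2 fold change was 0.29 ± 0.088 (SE) (adjusted p = 0.0725, edgeR).

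*Cct7* was singled out after its values were seen. It was called by DESeq2 and after the correction for GC content and length (log2 fold change 0.41, adjusted p = 0.0136), where 0.648% of all genes were called and *Cct7* was the 1 member called. With the correction made on coding transcripts, no member was called and 0.674% of all genes were. The other tested subunits, *Cct3*, *Cct4*, *Cct6a* and *Cct8*, had log2 fold changes of 0.15, 0.11, 0.034 and 0.040. *Tcp1*, which encodes the alpha subunit of the ring but falls outside the symbols chosen, had -0.067 ± 0.088 (SE). So without the correction 7 of the 8 subunits tested, *Tcp1* included, had log2 fold changes between -0.067 and 0.15, and *Cct7* lay above them. *Cct4* was also higher in every Ube3am-/p+ mouse than in every WT mouse. With the correction on coding transcripts *Cct7* had 0.17 (adjusted p = 0.271, edgeR). That was below *Cct4* (0.23) and *Cct8* (0.21) and above *Cct3* (0.16), so the rank of *Cct7* depended on the setting.

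Of the prefoldin subunits and other TRiC partners, 9 of 10 were tested, and 0 passed by edgeR, beside 2.01% of all genes tested. By DESeq2 1 of the 8 with an adjusted p passed (*Pfdn5*), beside 9.96% of all genes with one. At an unadjusted p below 0.05, 5 were higher and 1 lower, beside 12.2% and 12.4% of all genes. Their median log2 fold change was 0.33, and with GC content and length corrected for it was 0.26 and 0 were called. *Pfdn6*, a prefoldin subunit, had 21.2, 12.1 and 13.6 CPM in WT mice 1, 2 and 3 and 19.8, 32.0 and 42.1 CPM in Ube3am-/p+ mice 1, 2 and 3. Its levels were spread widely and overlapped, and the log2 fold change was 1.03 ± 0.34 (SE) (adjusted p = 0.133, edgeR). *Vbp1*, also a subunit of prefoldin, had the lowest estimate, -0.24 ± 0.10 (SE) (adjusted p = 0.172, edgeR).

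Cochaperones release, hold or redirect the clients of HSP70 and HSP90. Of 10 HSP70 cochaperones 0 passed by edgeR and 1 of the 8 with an adjusted p by DESeq2 (*Stub1*). At an unadjusted p below 0.05, 8 were higher and 1 lower, beside 12.2% and 12.4% of all genes. The median log2 fold change was 0.28 beside 0.034 for the members, and with GC content and length corrected for it was 0.075 beside 0.091. *St13* (HIP), which stabilises HSP70 bound to its client, was called higher after that correction (0.43, adjusted p = 0.0136, edgeR) and with the correction on coding transcripts (0.37, adjusted p = 0.0301), against 0.20 without it (adjusted p = 0.173). *Bag3*, the HSF1-induced partner of *Hspb8*, was at 7.89, 9.11 and 7.82 CPM in WT mice and 13.0, 9.63 and 10.6 CPM in Ube3am-/p+ mice. The groups did not overlap, and the log2 fold change was 0.43 ± 0.18 (SE) (adjusted p = 0.153, edgeR). *Bag4* had the lowest estimate, -0.26 ± 0.085 (SE) (adjusted p = 0.0878, edgeR).

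Of 16 HSP90 cochaperones 1 passed by edgeR, beside 2.01% of all genes tested. By DESeq2 4 of the 15 with an adjusted p passed (*Fkbp4*, *Stip1* and *Ahsa1* higher and *Cdc37l1* lower), beside 9.96% of all genes with one. The gene that passed by edgeR was *Fkbp4* (FKBP52), an immunophilin that helps steroid receptors respond to hormone. *Fkbp4* had 82.2, 82.5 and 75.1 CPM in WT mice 1, 2 and 3 and 94.2, 109.9 and 107 CPM in Ube3am-/p+ mice 1, 2 and 3. It was higher in every Ube3am-/p+ mouse, by 0.39 ± 0.094 (SE) on the log2 scale (adjusted p = 0.0430, edgeR). Without 1 of the mice numbered 2 or 3 its adjusted p was 0.156 to 0.272, in fits that called 0 to 2 of all genes. With GC content and length corrected for, its adjusted p was 0.124, at a log2 fold change of 0.24. At an unadjusted p below 0.05, 6 of the 16 were higher and 3 lower, beside 12.2% and 12.4% of all genes. With GC content and length corrected for, 1 was called, *Ahsa1* (log2 fold change 0.35, adjusted p = 0.0453, edgeR). With the correction on coding transcripts *Ahsa1* was not called (0.20, adjusted p = 0.222, edgeR). The lowest estimate was that of the myosin chaperone *Unc45b* (-0.76 ± 0.50 (SE), adjusted p = 0.359, edgeR), at 3.42, 1.27 and 2.88 CPM in WT and 0.676, 0.884 and 2.76 CPM in Ube3am-/p+ mice. The immediate early genes, given as a reading of recent neuronal activity, had 0 of 8 called by edgeR, 0 of the 5 with an adjusted p called by DESeq2 (*Fos* had none) and 3 at an unadjusted p below 0.05, with *Junb* at 0.44 ± 0.17 (SE) and *Fos* at -0.59 ± 0.19 (SE). *Arc* was called lower with GC content and length corrected for (-0.38, adjusted p = 0.0230, edgeR) and with the correction on coding transcripts (-0.38, adjusted p = 0.0187), against -0.16 without it (adjusted p = 0.340).

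The fold changes of the members moved with base composition. Across the 69 members the Spearman correlation of log2 fold change with the GC content of the longest transcript was 0.41, and across 14201 genes it was 0.62. Genes are not independent and all points share the same 6 libraries, so these are descriptions. The libraries differed along the same axis. In each library, the log2 CPM of every gene relative to its mean over the 6 libraries was correlated with GC content. These correlations ran from -0.57 in WT mouse 3 to 0.53 in Ube3am-/p+ mice 2 and 3. Both mice numbered 1 lay between, at 0.045 in WT and 0.059 in Ube3am-/p+. A value near 0 here means a library near the mean of the 6. After a correction for GC content and length within each library, the correlation of log2 fold change with GC content was 0.018 across all genes and -0.29 across the members. The median of the members was then 0.091 beside -0.010 for all genes. Estimates lay above 0 for 51 members and below 0 for 18, beside 6746 and 7455 of all genes.

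Of the 5 highest and 5 lowest members, all lay closer to 0 after the correction except *Hspa1l*, which went from -0.44 to -0.56, and *Dnajb14*, which went from 0.43 to 0.67. *Dnajb9*, with a transcript of 40.6% GC, went from -0.45 to -0.23, and *Hspa13*, at 39.8% GC, from -0.38 to -0.12. At the other end *Dnajb2*, at 57.3% GC, went from 0.44 to 0.26, and *Hspa1a*, at 58.9% GC, from 0.65 to 0.43. *Ube3a*, at 36.9% GC, went from -0.58 to -0.20 and was no longer called (adjusted p = 0.240, edgeR). The part of base composition in each member's difference was not tested beyond this correction.

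**Figure D4:**
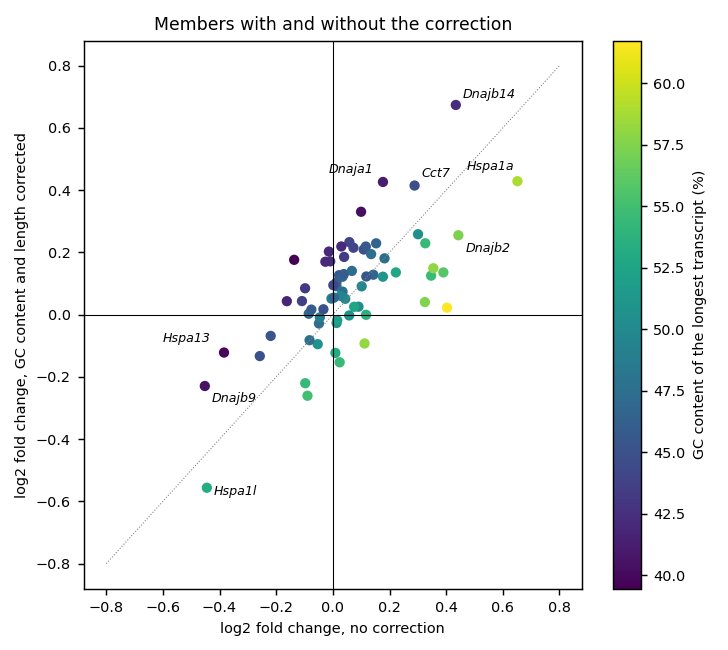
Log2 fold change (Ube3am-/p+ over WT) of the tested members before (horizontal axis) and after (vertical axis) correcting for GC content and length, coloured by the GC content of the longest transcript in percent. *Dnajb9* and *Hspa13* on the left move toward 0, to -0.23 and -0.12, and *Dnajb2* on the right moves from 0.44 to 0.26.

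Counts of several members were shared with other genes by sequence or position. The share of 100-base windows also found in another annotated gene, on either strand, was 51.0% for *Dnaja4*, 36.3% for *Dnajb6*, 32.1% for *Hspa8*, 26.9% for *Hspd1*, 24.0% for *Dnaja1* and 21.6% for *Dnajc30*. The exons of *Dnaja4* overlap those of *Wdr61* on the opposite strand over 44.0% of its exon bases, and those of *Dnajc30* overlap *Bud23* over 26.2%. *Hspd1* and *Hspe1* overlap each other over 112 exon bases on opposite strands. Values of these members are uncertain to that extent.

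The 12 members that were not tested had 0 to 47 counts over the 6 libraries together. *Dnajc5g*, a testis relative of *Dnajc5*, had 0, which allows up to 0.265 to 0.411 CPM in a library at 3 counts. *Dnajb8*, *Dnajc22*, *Dnajc5b*, *Hspb7* and *Cct6b* had 1, 2, 3, 3 and 7 counts. *Dnajb7*, *Hspb9*, *Cct8l1*, *Hspb3* and *Hspb2* had 9, 12, 13, 18 and 20 counts. *Dnajb13*, a J-protein of motile cilia, had 47. Several of these genes are known from testis or muscle, and their differences between genotypes could not be measured at this depth.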

How the data were processed

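RNA from the hippocampus of 3 WT and 3 Ube3am-/p+ mice was sequenced, and the authors deposited counts of reads per gene symbol, 1 table per mouse, without normalization or pooling. The submitters' processing notes name STAR 2.7.4a, HTSeq and the genome build mm10. The annotation and the strand setting are not given in the sources used here. Reads on no gene made up 54.1% to 55.0% of the reads that HTSeq listed for a library. They were left out of the totals, with the ambiguous and multiply aligned reads. Reads that did not align were listed at 0% in every library, so such reads are not part of these percentages.

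The 6 tables were joined, and CPM were computed on total gene counts. In R 4.3.3, genes were filtered by filterByExpr, scaled by TMM and tested by edgeR 4.0.16 (quasi-likelihood F test, robust, genotype as the only factor, two-sided, Benjamini-Hochberg over 14445 genes), and called where the adjusted p was under 0.05 and the change over 1.2-fold. The biological coefficient of variation was 0.102. Alternatives were DESeq2 1.42.0 (an adjusted p that it gave as NA stayed NA), other scalings and filters, a replicate block, a correction by natural splines (5 degrees of freedom each) in each library for the length and GC content of each gene's longest transcript (GENCODE M21), and leaving out each mouse. The steps were tested on simulated data. The simulated libraries had no trend with GC content, so false calls from such a trend could not be seen there.

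The symbol rule for the members and the gene lists were set with earlier results of these data known, although the rule itself uses no value. Members given in every mouse were the called ones, the top 2 per kb of each family, the 5 highest and 5 lowest log2 fold changes, and *Hspa1a*, *Hspa1b*, *Hspa5*, *Hsp90b1*, *Dnajb9*, *Dnajc5* and *Dnajb1*, and of the pathway lists the called genes and the extremes. Others were named in the account of their family, and *St13*, *Arc* and the genes called by DESeq2 were named after their values were seen. Promoters are from RefSeq (GRCm38.p6), and gene positions from GENCODE M21 (GRCm38). Shared sequence was counted in 100-base windows.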

Additional observations from a re-analysis of the deposited data

How the results depend on the processing

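The number of genes called depended strongly on the setting. By DESeq2, 953 genes, 4 members and 6 genes of the pathway lists were called, and with no filter on low counts 1176, 5 and 9. At an unadjusted p below 0.05 and 1.2-fold they were 2832, 9 and 21. Corrected for length and GC content they were 92, 1 and 3, with the correction on coding transcripts 91, 0 and 1, and with the correction together with the replicate block 13, 0 and 0. The replicate numbers used as a block called 0 genes, 0 members and 0 pathway genes. The mice with the same number did not deviate together (correlations -0.285, -0.177 and -0.311), so the block gives no pairing of the mice. Leaving out 1 mouse at a time gave 0 to 2582 genes, 0 to 8 members and 0 to 21 pathway genes, and 8 and 6 members were called without WT mouse 1 and Ube3am-/p+ mouse 1. In the 4 mice numbered 2 and 3, an alternative chosen after seeing the data, as was the correction on coding transcripts, they were 4138, 15 and 33. Other scaling factors and a stricter filter left *Dnajb2* as the 1 member called. The median of the members was 0.091 with the correction, 0.090 on coding transcripts, 0.092 with the block added, 0.016 with library size alone, -0.00043 in the 4 mice and 0.027 to 0.061 without 1 mouse. The log2 fold change of *Ube3a* was -0.20 with the correction, -0.17 on coding transcripts, -0.19 with the block added and -0.57 with the block alone, not called in any of these, and -0.73 to -0.48 without 1 mouse. With length and GC content corrected for the sign turned for *Hspa9* (0.016), *Hsp90aa1* (0.044), *Hspb8* (-0.12), *Dnaja2* (0.17), *Dnajc6* (0.0029), *Dnajc5* (0.051), *Hspa1b* (-0.093) and *Hsp90b1* (0.17). With that correction with the replicate block the sign turned for *Hspa9* (0.017), *Hsp90aa1* (0.045), *Hspb8* (-0.12), *Dnaja2* (0.17), *Dnajc6* (0.0026), *Dnajc5* (0.048), *Hspa1b* (-0.081) and *Hsp90b1* (0.17). With the correction on coding transcripts the sign turned for *Hspa8* (-0.0010), *Hspa9* (0.029), *Hsp90aa1* (0.059), *Hspb8* (-0.089), *Hspe1* (-0.097), *Dnaja2* (0.19), *Dnajc6* (0.020), *Dnajc5* (0.064), *Cct2* (0.0098), *Hspa1b* (-0.097) and *Hsp90b1* (0.13). In the 4 mice numbered 2 and 3 the sign turned for *Hspa8* (-0.061), *Hspa4* (-0.0054), *Hspb8* (-0.00043), *Hspd1* (-0.075) and *Hspa5* (-0.0067). With no filter the sign turned for *Dnaja2* (0.0026) and *Dnajc5* (0.0066). With upper-quartile factors the sign turned for *Dnaja2* (0.0032) and *Dnajc5* (0.0071). With library size alone the sign turned for *Hspb8* (-0.0079) and *Hspd1* (-0.014). Without 1 mouse it turned for *Hspa8* (-0.010 to 0.077), *Hspb8* (-0.083 to 0.15), *Hspd1* (-0.046 to 0.043), *Dnaja2* (-0.059 to 0.039), *Dnajb6* (-0.10 to 0.0047), *Dnajc5* (-0.017 to 0.011), *Cct2* (-0.095 to 0.0033), *Hspa1b* (-0.028 to 0.26) and *Hsp90b1* (-0.099 to 0.058). None of the values with the sign turned was called. *Hsp90aa1* was called with its sign kept in the 4 mice numbered 2 and 3 (-0.29, adjusted p = 0.00427, edgeR). The alternative values were also counted for *Ube3a*, the 31 members given in every mouse by the rule above, *Cct7*, *Dnajb11* and *Fkbp4*. For these genes, 482 of the values kept the direction and the side of the threshold, 30 were newly called, 24 lost the call and 58 turned the sign. The cause of these changes was not tested. Precision was lowest for *Dnajb3*, *Dnajc25*, *Hspb1*, *Dnajc17*, *Dnajb14* and *Hspb6*, whose SE rounded to 0.25 or more on the log2 scale.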
